A study of Mus musculus with 4 samples.

Results

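NF-κB is a family of transcription factors built as dimers of 5 subunits, which inhibitory IκB proteins hold in check. The 10 genes described here encode the 5 subunits (Nfkb1, Nfkb2, Rel, Rela and Relb), the 3 IκB proteins that retain the dimers in the cytoplasm (Nfkbia, Nfkbib and Nfkbie), and Nfkbiz and Bcl3, which encode IκB proteins that act in the nucleus. They were taken as a fixed list and matched by gene ID, and all 10 were found among the 31950 gene IDs that the gene lists of both libraries share. The IκB kinase marks IκB proteins for destruction, which frees the dimers to enter the nucleus, and several of the 10 genes, Nfkbia among them, are themselves NF-κB target genes. A20, encoded by Tnfaip3, restrains the steps above the kinase, and its zinc finger 7 binds linear ubiquitin chains. In intestinal lymphocytes and myeloid cells the pathway runs downstream of antigen receptors, cytokine receptors and sensors of microbes.

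Lamina propria cells of the small intestine came from 12-week-old WT mice and from A20ZF7 mice, whose A20 carries point mutations that disable zinc finger 7. Cells of 2 mice per genotype were pooled into 1 droplet library per genotype, after a negative selection kit for T cells and innate lymphoid cells (ILCs), and 60000 cells were collected for each. The labels name no treatment of either group, the mutation is a knock-in carried by every cell of the animal, and UMI (unique molecular identifier) counts cannot show it. With 1 library per genotype there was no replicate and no test, so each genotype value is given with an exact 95% interval that covers counting error only.

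The files gave 14557 cells of the WT library (median 1059 UMIs) and 43218 of the A20ZF7 library (median 853), and marker gates that use none of the 10 genes placed 10286 and 22154 of them in a cell type. 16 cell types had at least 30 cells in both libraries, from fibroblasts (4667 WT and 9992 A20ZF7 cells) and Th17-like cells (283 and 2176) down to Treg-like cells (36 and 510). Despite the selection for lymphocytes, fibroblasts and smooth muscle cells were the largest gated types of the WT library. Foxp3 stood at 840 and 803 CPM (the gene's UMIs scaled to a common total) in Treg-like cells of WT and A20ZF7. It was 0 in Th17-like cells, which the gates fix and which is no check of them. Il17a, which the gates did not use, stood at 538 and 2808 CPM in Th17-like cells. It was also found in Treg-like cells (266 and 1280 CPM) and in plasma cells (17.5 and 600 CPM). ILC2-like cells had 762 and 268 CPM of Il17a, a higher WT level than in Th17-like cells. In Th17-like cells Cd4 stood at 89.2 and 194 CPM and Il7r at 1027 and 474 CPM. Whether this gate holds the same kinds of cells in both libraries was not tested. Between the libraries, 901 cell barcodes were shared, where 854 would be shared if the cells drew their barcodes at random. The libraries were counted against gene lists of 33696 and 32285 IDs, so differences of gene model, library and genotype cannot be told apart.

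Promoter sequence shows which of the genes carry the element that NF-κB dimers bind. Of the 10 genes, 7 had a promoter entry in the RefSeq table (GRCm38.p6), and Nfkb1, Relb and Nfkbiz had none. The κB motif was searched on both strands of the 250 bases before each start, together with a stricter form of it, GGGANNTTCC, every match of which is also a match of the κB motif. Windows of 4 of the 7 genes held it, where 7.25% of all 32851 promoters did and 1.21% held the stricter form. No window of Rela, Nfkbib or Bcl3 did. The windows of the first start of the 4 genes are shown because these members include the feedback inhibitor and the subunit that the results turn on, with every base inside a κB match in capitals.
Nfkbia, chr12:55492648-55492897, minus strand: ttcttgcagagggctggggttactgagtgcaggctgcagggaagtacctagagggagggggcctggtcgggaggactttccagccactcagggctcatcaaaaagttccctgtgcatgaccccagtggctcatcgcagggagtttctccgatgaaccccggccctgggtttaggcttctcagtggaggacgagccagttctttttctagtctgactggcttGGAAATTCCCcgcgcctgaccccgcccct
Rel, chr11:23770970-23771219, minus strand: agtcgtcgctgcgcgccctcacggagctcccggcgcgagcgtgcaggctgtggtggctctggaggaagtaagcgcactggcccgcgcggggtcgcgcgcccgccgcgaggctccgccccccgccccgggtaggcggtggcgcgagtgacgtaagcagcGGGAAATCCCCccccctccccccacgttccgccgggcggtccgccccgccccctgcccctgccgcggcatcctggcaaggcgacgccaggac
Nfkb2, chr19:46304487-46304736, plus strand: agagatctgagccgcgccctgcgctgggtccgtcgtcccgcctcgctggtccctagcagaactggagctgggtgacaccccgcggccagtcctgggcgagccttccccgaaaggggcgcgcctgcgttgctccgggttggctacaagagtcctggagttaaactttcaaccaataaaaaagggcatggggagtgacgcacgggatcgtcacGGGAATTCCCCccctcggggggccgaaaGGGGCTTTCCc
Nfkbie, chr17:45555450-45555699, plus strand: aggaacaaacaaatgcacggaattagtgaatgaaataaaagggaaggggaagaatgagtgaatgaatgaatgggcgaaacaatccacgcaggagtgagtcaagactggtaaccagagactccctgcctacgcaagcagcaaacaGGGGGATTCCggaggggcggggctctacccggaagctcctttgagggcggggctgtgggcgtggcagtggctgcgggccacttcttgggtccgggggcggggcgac
The Nfkbia match lies 29 to 20 bases before the start and has the stricter form. Rel holds a pair of overlapping matches within 92 to 82 bases before its start. The Nfkb2 window shown holds 3 matches, 2 of which overlap, and the Nfkbie match lies 106 to 97 bases before the start. A match describes the letters of the window and is not shown to be a bound site.

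**Figure D1:**
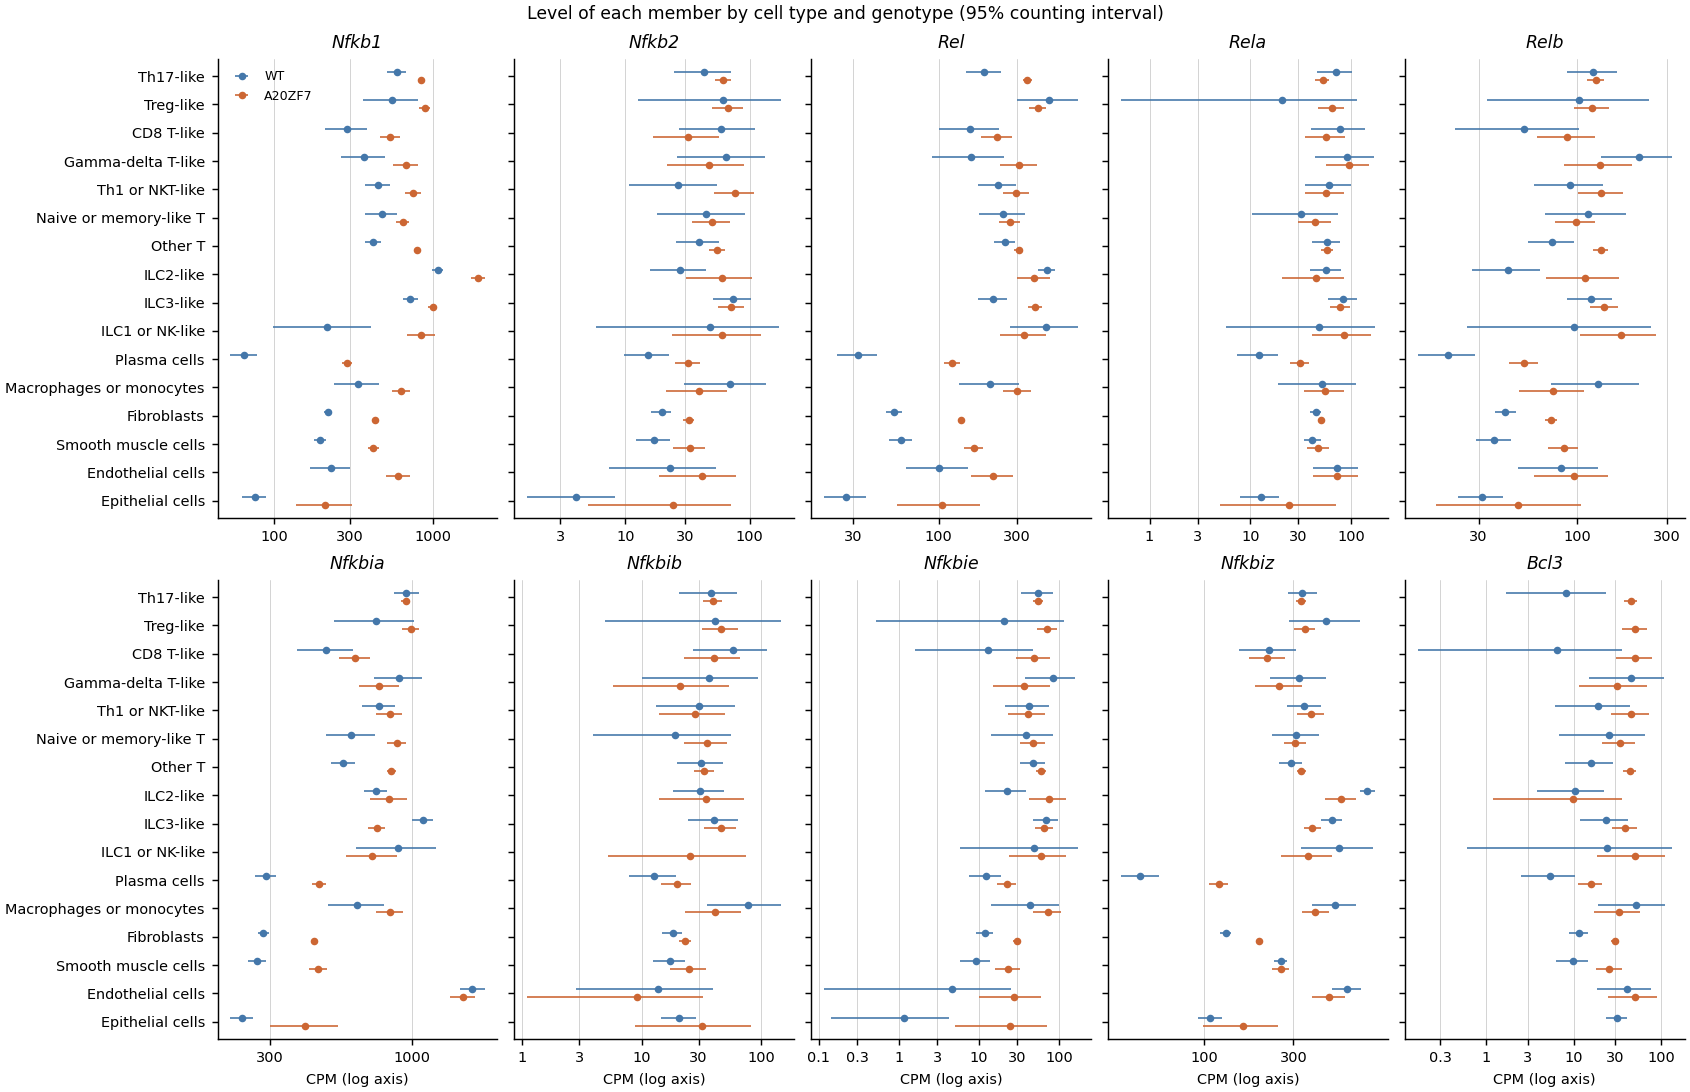
Level of each of the 10 genes in CPM (log axis) in the 16 cell types, with the WT library in blue and the A20ZF7 library in orange and bars for the exact 95% counting interval; levels of 0 are not drawn. Nfkb1 is highest in ILC2-like cells in both libraries, and Nfkbia is highest in endothelial cells.

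Nfkb1 encodes p105, which is processed to the p50 subunit. Its level was higher in the A20ZF7 library in all 16 cell types. In Th17-like cells the level was 592 CPM in the WT and 841 CPM in the A20ZF7 library, a ratio of 1.42 (1.24 to 1.64). ILC2-like cells had the highest level in either library, 1070 CPM in WT and 1909 CPM in A20ZF7 (ratio 1.78, 1.57 to 2.03), and their intervals lay above those of every other type. In ILC3-like cells the levels were 720 and 994 CPM (ratio 1.38, 1.22 to 1.57), and the ratio was lower against each WT mouse, as given below. The T cells outside any named subset had 418 and 798 CPM (1.91, 1.69 to 2.16), and CD8 T-like cells had 286 and 536 CPM (1.87, 1.35 to 2.66).

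The Nfkb1 ratio ranged from 1.36 in naive or memory-like T cells to 4.43 in plasma cells, with a median of 1.88 over the 16 types. Its interval lay above 1 in 16 of 16 types, and the ratio was at least 1.5 in 13 of them. In fibroblasts the level was 220 CPM in WT and 430 CPM in A20ZF7 (1.96, 1.84 to 2.09), and in macrophages or monocytes it was 336 and 632 CPM (1.88, 1.34 to 2.72). Dividing each ratio by the median ratio of all genes in the same cell type left 16 of 16 above 1. Of the 13 steps between neighbours in the WT order of cell types with at least 50 cells, 11 had overlapping intervals, so the order ILC2-like, ILC3-like, Th17-like, naive or memory-like T is resolved only in part.

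Rel encodes c-Rel, the subunit most tied to lymphocyte activation. In Th17-like cells its level was 189 CPM in WT and 348 CPM in A20ZF7, a ratio of 1.84 (1.44 to 2.38). ILC3-like cells were close to this, with 214 and 389 CPM (1.82, 1.45 to 2.28), and gamma-delta T-like cells had 156 and 310 CPM (1.98, 1.14 to 3.63). Unlike Nfkb1, Rel was not higher in ILC2-like cells, with 456 CPM in WT and 383 CPM in A20ZF7 (0.840, 0.643 to 1.09). Treg-like cells also lay under 1, with 471 and 402 CPM (0.854, 0.558 to 1.37), and so did ILC1 or NK-like cells with 455 and 331 CPM (0.729, 0.411 to 1.34). The intervals of these 3 ratios include 1. All 3 intervals end below the start of the Th17-like one, but this covers counting error only, with 36 WT Treg-like and 39 WT ILC1 or NK-like cells, and the difference between cell types was not tested over animals.

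Over the 16 cell types the Rel interval lay above 1 in 9. The largest ratios were outside the T cells and ILCs: 3.87 (1.92 to 7.28) in epithelial cells, 3.76 (2.80 to 5.13) in plasma cells, 2.80 (2.27 to 3.46) in smooth muscle cells and 2.59 (2.29 to 2.93) in fibroblasts. Levels there were low, 53.2 CPM in WT and 138 CPM in A20ZF7 fibroblasts, and markers of lymphocytes moved with them, as given below. Against the WT cells of hashtag 7 or of hashtag 8 alone, the Rel ratio was 2.0 and 1.49 in fibroblasts and 1.67 and 1.64 in smooth muscle cells, beside 1.74 and 1.96 in Th17-like cells, so the order of these types turns with the WT cells taken. In epithelial cells the WT mice had 32.8 and 97.4 CPM, beside 104.9 CPM in A20ZF7.

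**Figure D2:**
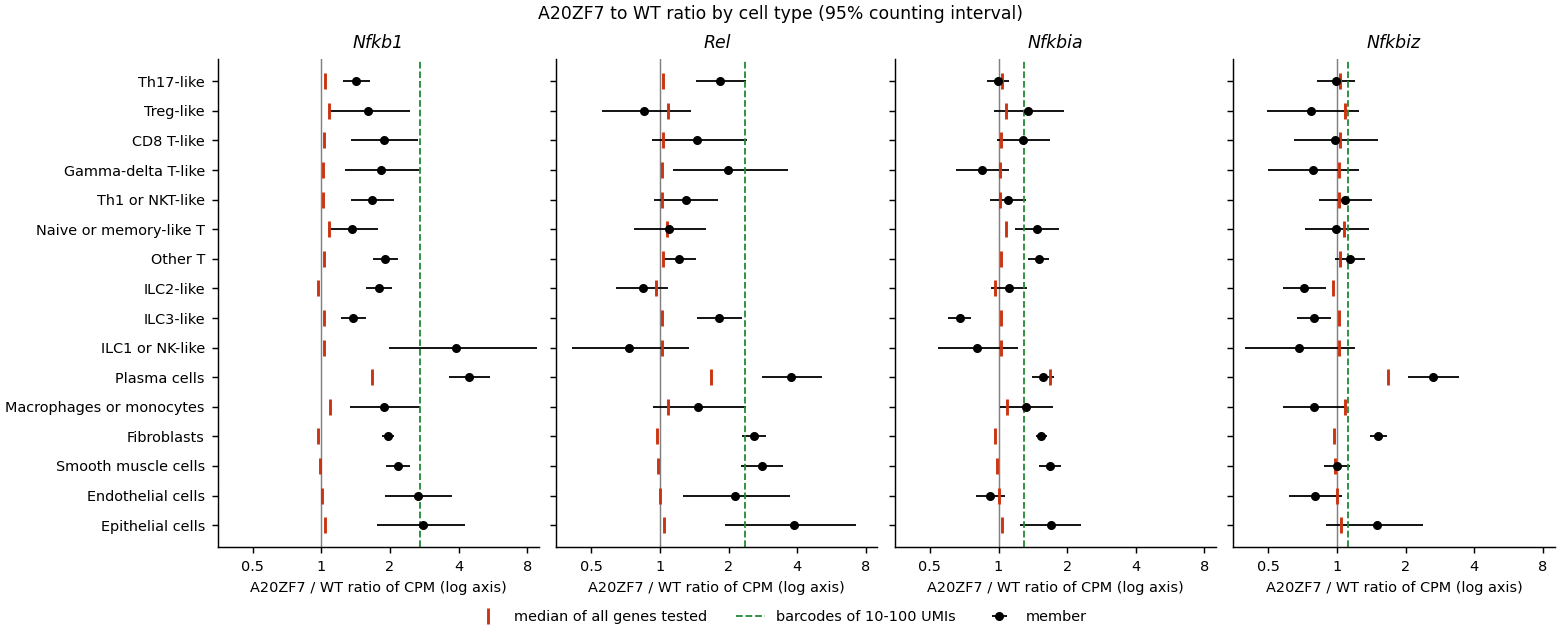
Ratio of the A20ZF7 to the WT level (log axis) of Nfkb1, Rel, Nfkbia and Nfkbiz in the 16 cell types, as black points with exact 95% counting intervals; red ticks mark the median ratio of all genes tested in the type, and the green dashed line marks the same ratio in barcodes of 10 to 100 UMIs. Every Nfkb1 point lies right of 1, while Nfkbia lies left of 1 in ILC3-like cells (0.676) and Nfkbiz in ILC2-like cells (0.719).

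Nfkb2 encodes p100, which is processed to p52 in the non-canonical pathway. It had few UMIs: 43.3 CPM in WT and 61.2 CPM in A20ZF7 Th17-like cells (1.41, 0.848 to 2.53). Of the 12 cell types with at least 20 UMIs over both libraries, its interval lay above 1 in 4, Th1 or NKT-like cells (2.85, 1.23 to 7.69), plasma cells (2.10), smooth muscle cells (1.94) and fibroblasts (1.65, 1.33 to 2.05).

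Rela encodes p65, the partner of p50 in the canonical dimer. It showed no such difference: 70.3 CPM in WT and 52.2 CPM in A20ZF7 Th17-like cells (0.742, 0.488 to 1.17), 57.7 and 57.9 CPM in the T cells of no named subset (1.0, 0.712 to 1.45), and 44.5 and 50.6 CPM in fibroblasts (1.14, 0.981 to 1.32). Its interval included 1 in 14 of 15 types, and plasma cells (2.56) were the exception. An interval that includes 1 does not show equal levels, since the Th17-like interval admits a ratio as low as 0.488.

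Relb encodes the subunit that pairs with p52. In Th17-like cells its levels were 122 CPM in WT and 126 CPM in A20ZF7 (1.03, 0.757 to 1.44). It was higher in A20ZF7 in the T cells of no named subset, with 73.5 and 133 CPM (1.81, 1.36 to 2.47), and in ILC2-like cells, with 43.0 and 109 CPM (2.54, 1.37 to 4.70, from 25 and 22 UMIs). The lowest ratios were 0.579 (0.297 to 1.17) in macrophages or monocytes and 0.621 (0.338 to 1.15) in gamma-delta T-like cells. The interval lay above 1 in 5 of 16 types and below 1 in none.

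Nfkbia encodes IκBα, the inhibitor that NF-κB induces as its own brake. In Th17-like cells its level was the same within a narrow interval, 952 CPM in WT and 948 CPM in A20ZF7 (0.997, 0.892 to 1.12), in the cells where Nfkb1 and Rel were higher. ILC3-like cells had the lowest ratio of any type: 1095 CPM in WT and 740 CPM in A20ZF7 (0.676, 0.603 to 0.758). The lower level held in each of the ILC3 gates, at 0.600 (0.366 to 0.976) in NCR ILC3-like, 0.597 (0.438 to 0.818) in LTi-like and 0.693 (0.610 to 0.788) in the other ILC3-like cells.

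Nfkbia was higher in A20ZF7 in some other lymphocytes, namely the T cells of no named subset, with 559 and 839 CPM (1.5, 1.35 to 1.67), and naive or memory-like T cells, with 596 and 877 CPM (1.47, 1.18 to 1.85). Gamma-delta T-like cells had 893 and 757 CPM (0.848, 0.651 to 1.11) and ILC1 or NK-like cells 885 and 714 CPM (0.806, 0.541 to 1.22), with intervals that include 1. Fibroblasts had 284 and 437 CPM (1.54, 1.46 to 1.63), with ratios of 1.34 and 1.19 against the WT cells of hashtag 7 and of hashtag 8 alone. Endothelial cells had the highest level in either library, 1667 CPM in WT and 1536 CPM in A20ZF7 (0.921, 0.792 to 1.07). Over the 16 types the interval lay above 1 in 7 and below 1 in 1.

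Nfkbib and Nfkbie encode IκBβ and IκBε, further cytoplasmic inhibitors, and both were sparse. In Th17-like cells Nfkbib had 37.8 CPM in WT and 39.6 CPM in A20ZF7 (1.05, 0.599 to 1.97). Nfkbie there stood at 54.1 and 54.5 CPM (1.01, 0.632 to 1.69). The interval of Nfkbib lay above 1 in fibroblasts alone (1.27, 1.01 to 1.61), of 12 types with enough UMIs. The A20ZF7 level there, 23.2 CPM, lay between those of the WT mice, 17.3 and 30.3 CPM. Against hashtag 8 alone the ratio was 0.765. The interval of Nfkbie lay above 1 in 4 of 12, fibroblasts (11.7 and 29.7 CPM, 2.53), smooth muscle cells (2.52), plasma cells (1.85) and ILC2-like cells (22.4 and 74.6 CPM, 3.34, 1.48 to 7.62).

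Nfkbiz encodes IκBζ, a nuclear protein that helps induce secondary response genes and takes part in Th17 differentiation. Its levels in Th17-like cells were 335 CPM in WT and 330 CPM in A20ZF7 (0.986, 0.817 to 1.20). The ILCs had lower levels in A20ZF7: ILC2-like cells, with the highest level in both libraries, had 746 and 537 CPM (0.719, 0.577 to 0.890), and ILC3-like cells had 480 and 379 CPM (0.790, 0.668 to 0.936). It was higher in fibroblasts, at 130 and 197 CPM (1.52, 1.40 to 1.65), and in plasma cells (2.63, 2.04 to 3.43), and smooth muscle cells had 257 and 257 CPM. Against the WT cells of hashtag 7 or of hashtag 8 alone, the fibroblast ratio of Nfkbiz was 1.28 and 1.07.

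Bcl3 encodes a nuclear partner of p50 and p52 homodimers. In Th17-like cells it had 3 UMIs in WT and 137 in A20ZF7, which gives 8.11 and 45.5 CPM, a ratio of 5.62 with a wide counting interval (1.88 to 27.6). The T cells of no named subset had 15.9 and 44.0 CPM (2.77, 1.51 to 5.67), and CD8 T-like cells had 1 and 19 UMIs (7.83, 1.24 to 325). Treg-like cells had 0 UMIs in WT, which allows up to 61.4 CPM, and 50.4 CPM in A20ZF7, so no fold is given. ILC3-like cells had 23.6 and 38.9 CPM (1.65, 0.829 to 3.57), and ILC2-like cells had 6 and 2 UMIs. Epithelial cells had 54 UMIs (31.1 CPM) in WT and 0 in the 62 A20ZF7 cells, which allows up to 24.2 CPM. The WT cells of hashtag 7 and of hashtag 8 there had 44.5 and 19.5 CPM, and the hashtag 8 value lies under that limit.

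**Figure D3:**
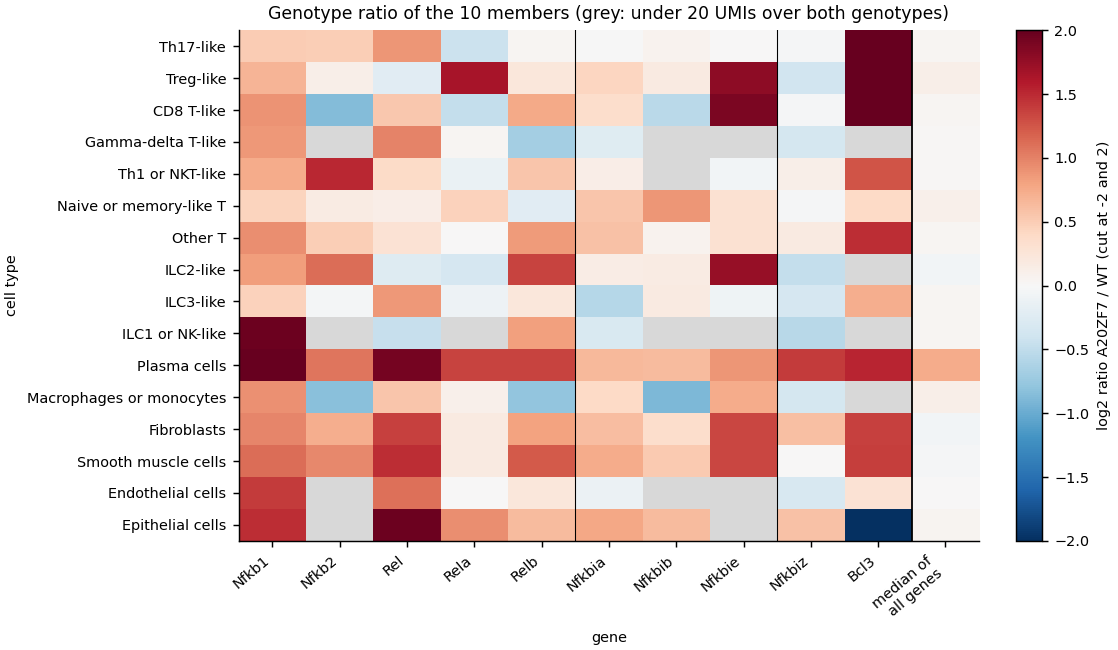
Log2 ratio of the A20ZF7 to the WT level for each gene (columns) and cell type (rows), red where A20ZF7 is higher and blue where it is lower, cut off at 2 in either direction, with grey for under 20 UMIs over both libraries; the last column is the median of all genes tested. The Nfkb1 column is red in 16 of 16 rows, and the Nfkbia, Nfkbiz and Rel columns hold both colours.

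Read per cell type, a gene is counted here where its ratio was at least 1.5 or at most 1 in 1.5, among genes with at least 20 UMIs over both libraries. Th17-like cells had 2 members higher (Rel and Bcl3) and 0 lower of 10, where 19.9% of all genes were higher and 13.7% lower, so the count is near the background. Bcl3, with 3 WT and 137 A20ZF7 UMIs, reached 20 UMIs only through the A20ZF7 library. ILC3-like cells also had 2 higher and 0 lower of 10, against 16.7% and 12.5%. The median log2 ratio of the members was 0.06 in Th17-like cells, where that of all genes was 0.05, and 0.07 in ILC3-like cells, where it was 0.03. Counts in the ILC3 gates were 2 higher and 1 lower of 4 in NCR ILC3-like cells (all genes 19.2% and 17.2%), 0 and 2 of 5 in LTi-like cells (19.9% and 15%), and 2 and 0 of 10 in the others (18.1% and 12.4%).

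Among the other lymphocytes, 3 of 10 members were higher and 0 lower in the T cells of no named subset (all genes 15.9% and 9.92%). The median log2 ratio of the members there was 0.40, beside 0.04 for all genes. ILC2-like cells had 4 higher and 0 lower of 9 (14.8% and 20.8%), CD8 T-like cells 4 and 1 of 10 (17% and 13.4%) and Th1 or NKT-like cells 3 and 0 of 9 (15.4% and 12.8%). The 4 in CD8 T-like cells are Nfkb1, Relb with an interval that includes 1, Nfkbie (2 and 18 UMIs) and Bcl3 (1 and 19 UMIs). Nfkbie and Bcl3 reached 20 UMIs only through the A20ZF7 library. The 3 in Th1 or NKT-like cells are Nfkb1, Nfkb2 (7 WT and 30 A20ZF7 UMIs) and Bcl3 (5 and 18 UMIs). The Bcl3 interval there includes 1. Naive or memory-like T cells had 1 and 0 of 10 (22.2% and 11.8%), and gamma-delta T-like cells had 2 and 1 of 6 (17.9% and 14.1%). The 1 in naive or memory-like T cells is Nfkbib (3 WT and 24 A20ZF7 UMIs), with an interval that includes 1. It reached 20 UMIs only through the A20ZF7 library. The 4 of 10 higher in Treg-like cells (29.8% and 20.1%) are Bcl3, for which no fold is given, Rela and Nfkbie with 1 WT UMI each and intervals that include 1, and Nfkb1 (1.6, 1.09 to 2.45). The 2 of 5 in ILC1 or NK-like cells (22.3% and 16%) rest on 39 WT cells. Set against the background, these shares run from 1 of 10 where 22.2% of all genes were higher to 4 of 9 where 14.8% were.

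Fibroblasts, smooth muscle cells, epithelial cells and plasma cells had the most members higher. The counts were 8 higher and 0 lower of 10 in fibroblasts (all genes 12.8% and 11.8%), 7 and 0 of 10 in smooth muscle cells (13.9% and 13.2%), 6 and 1 of 8 in epithelial cells (29.8% and 27.8%) and 2 and 0 of 7 in endothelial cells (19.2% and 14.4%). The 6 in epithelial cells include Rela, Relb and Nfkbib, each with an interval that includes 1. Rela had 3 and Relb 6 UMIs in the 62 A20ZF7 epithelial cells. The 1 lower there is Bcl3, with 0 A20ZF7 UMIs. In plasma cells all 10 were higher, but so were 61.1% of all genes, with 2.9% lower. Macrophages or monocytes had 2 higher and 3 lower of 9 (24.5% and 11.9%). Median log2 ratios of the members were 0.76 in fibroblasts and 1.03 in smooth muscle cells, where those of all genes were -0.05 and -0.03. The smooth muscle count was 5 against hashtag 7 alone and 4 against hashtag 8 alone, and Nfkb1 there stood at 261 and 333 CPM in the WT cells of these tags and at 138 CPM in those with no call.

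Markers of T cells moved with these differences outside the T cells and ILCs. The summed level of the 7 T cell receptor and CD3 genes was 269 CPM in WT and 665 CPM in A20ZF7 fibroblasts, 2.47 times as high, and its ratio was 2.53 in smooth muscle cells, 2.89 in endothelial cells, 2.68 in macrophages or monocytes, 4.92 in plasma cells and 5.29 in epithelial cells. Ptprc, the pan-leukocyte marker CD45, was higher by a ratio of 2.48 (2.30 to 2.68) in fibroblasts, and Tnfaip3 by 2.34. The same T cell list had a ratio of 1.06 in Th17-like cells and 1.33 in ILC3-like cells, where the Ptprc ratio was 1.65 (1.40 to 1.94). In fibroblasts with 0 UMIs of any other lineage list, the ratio was 2.03 for Nfkb1, 2.82 for Rel and 1.39 for Nfkbia, beside 1.96, 2.59 and 1.54 in all of them. That of Nfkb2 was 0.998 in place of 1.65, and that of Nfkbie 1.69 in place of 2.53. This gate drops cells by the listed genes only, and whether other lymphocyte RNA fell in the cells kept was not tested. In plasma cells the immunoglobulin genes took 61.9% of the UMIs in WT and 39.4% in A20ZF7. The part of this shift in the plasma cell ratios was not tested beyond the alternatives of the closing section. These were division by the median ratio and totals that leave out immunoglobulin and some other genes. After the division the ratio was 2.65 for Nfkb1, 2.25 for Rel and 1.57 for Nfkbiz, in place of 4.43, 3.76 and 2.63. That of Nfkbia was 0.936 and that of Nfkbib 0.923.

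The WT mice could be told apart in part, through the antibodies that tagged each of them, while both antibody files held the WT tags and the A20ZF7 mice could not. Among WT barcodes with at least 200 genes, hashtag 7 was assigned to 8882, hashtag 8 to 4543 and both to 2829, and 12593 had no call. Nfkb1 in Th17-like cells stood at 667 CPM (131 cells) and 633 CPM (93 cells) in the WT mice, and the A20ZF7 level of 841 CPM lay above both. Rel stood at 200 and 178 CPM beside 348 CPM, and Nfkbia at 947 and 968 CPM beside 948 CPM. Bcl3 there had 1 and 2 UMIs, or 6.07 and 14.2 CPM, beside 45.5 CPM.

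For Nfkb1 the A20ZF7 level was above both WT mice in 16 of 16 types, and its interval lay above the intervals of both in 9. ILC3-like cells were not among the 9. Nfkb1 there stood at 787 and 880 CPM in the WT mice, 571 CPM in the 210 WT cells with no call and 994 CPM in A20ZF7. The ratio was 1.26 against hashtag 7 alone, 1.13 against hashtag 8 alone and 1.11 with 0 UMIs of other lineage lists. The lower Nfkbia of ILC3-like cells was a case in the other direction, with 1092 and 1173 CPM in the WT mice and 740 CPM in A20ZF7, whose interval (688 to 796) lay below the intervals of both. For Nfkbiz in ILC3-like cells the intervals overlapped, with 493 and 384 CPM in the WT mice and 379 CPM (342 to 419) in A20ZF7. In ILC2-like cells Nfkb1 stood at 1129 and 1175 CPM in the WT mice beside 1909 CPM, and Nfkbiz at 791 and 732 CPM beside 537 CPM. For Nfkbiz there the A20ZF7 interval (440 to 648 CPM) overlapped that of hashtag 8 (601 to 883 CPM). A pair of mice gives no estimate of the spread between animals that a test could use.

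Fibroblasts show that the WT value depends on which cells are counted. Nfkb1 stood at 281 and 270 CPM in fibroblasts called for hashtag 7 and 8, and at 171 CPM in the 2845 fibroblasts with no call. The T cell list followed, at 411 and 468 CPM in the called cells and 137 CPM in those without a call. The A20ZF7 level of 430 CPM lay above all 3, and the ratio was 1.53 against hashtag 7 alone and 1.59 against hashtag 8 alone. Against either tag alone, the count of members at least 1.5 times higher in fibroblasts was 4 in place of 8. In Th17-like cells the 59 cells with no call also had less Nfkb1, 310 CPM, than the called cells.

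**Figure D4:**
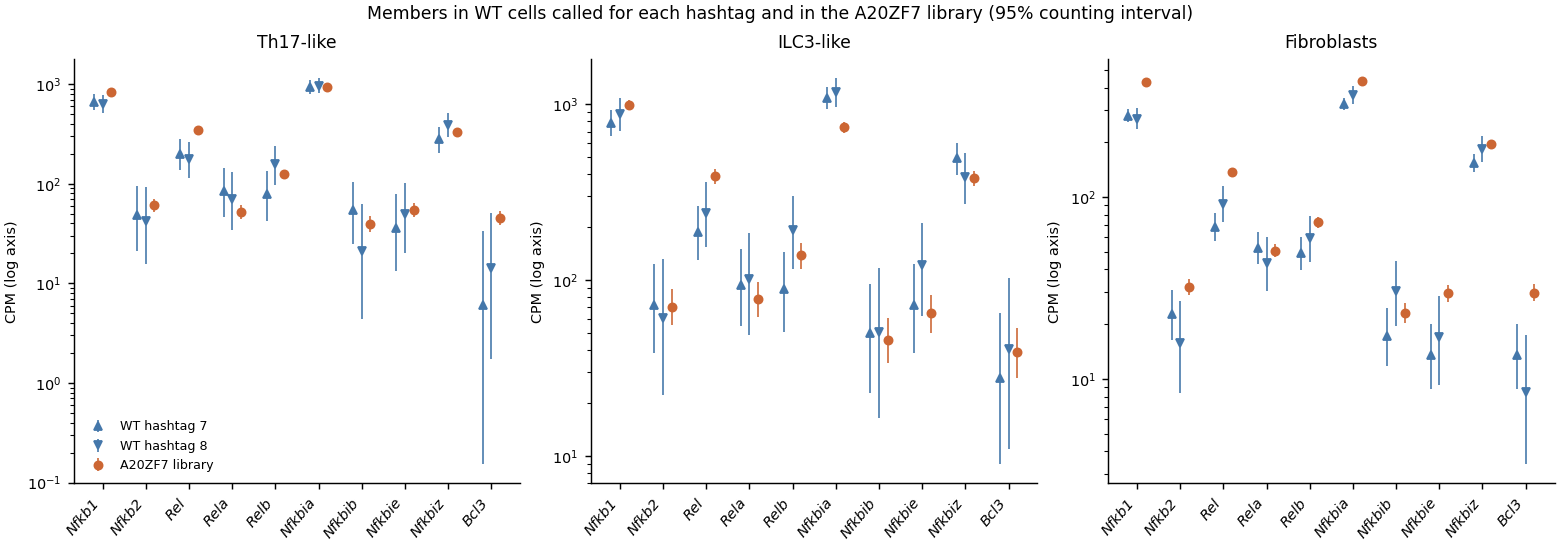
Level of the 10 genes in CPM (log axis) in Th17-like cells, ILC3-like cells and fibroblasts, with blue triangles for WT cells called for hashtag 7 (up) or hashtag 8 (down), orange circles for the A20ZF7 library and bars for the exact 95% counting interval. Nfkb1 and Rel of A20ZF7 lie above both WT mice in each of these types, though in ILC3-like cells their intervals overlap those of hashtag 8. Nfkbia lies below both WT mice in ILC3-like cells.

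The share of cells with at least 1 UMI gave the same directions. In Th17-like cells (median 1095 UMIs in WT and 1202 in A20ZF7), 42.8% (36.9 to 48.7) of WT and 62.1% (60.0 to 64.1) of A20ZF7 cells had a UMI of Nfkb1, and after thinning every cell to 500 UMIs, 21.6% and 34.4% did. For Rel the shares were 18.4% and 33.7%, and 9.54% and 15.5% after thinning. For Nfkbia in ILC3-like cells (median 864 and 700 UMIs), they were 56.5% and 38.2%, and 38.0% and 27.6% after thinning. Thinning left out 74 of 2176 A20ZF7 Th17-like and 251 of 1281 A20ZF7 ILC3-like cells with under 500 UMIs, and 0 WT cells of either type. In epithelial cells (median 4295 and 1223 UMIs), 9.33% and 21.0% had a UMI of Rel, and 1.67% and 1.82% after thinning, which left 55 A20ZF7 cells. Free RNA, estimated as given below, made up 1.61% and 6.13% of epithelial UMIs. In Th17-like cells it made up 5.05% and 7.34%, so the epithelial shares are no matched background for them. No gated type lacks Nfkb1 or Nfkbia by its biology, so no background from a gated type can be given for these genes either.

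Barcodes of 10 to 100 UMIs, taken here as a measure of free RNA, showed many of the same differences. Nfkb1 stood at 331 CPM in 43266 such WT barcodes and at 901 CPM in 21032 of A20ZF7, a ratio of 2.72 (2.46 to 3.0), larger than in Th17-like cells. Rel had a ratio of 2.37 (2.04 to 2.75), Relb 3.0, Bcl3 2.93 and Nfkbia 1.29 (1.14 to 1.46), while the Nfkbiz interval included 1 (1.11, 0.938 to 1.32). Over all genes, the median log2 ratio in these barcodes was 0.25 and 29.2% were at least 1.5 times higher in A20ZF7. Malat1, a nuclear RNA, had 11128 CPM in the WT and 16483 CPM in the A20ZF7 barcodes, and mitochondrial genes took 31.8% and 21.9% of their UMIs.

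The immunoglobulin content put free RNA at 5.05% of the UMIs of WT and 7.34% of those of A20ZF7 Th17-like cells, 5.71% and 10.6% in ILC3-like cells, and 5.18% and 8.64% in fibroblasts. Taking it off at those shares left the Th17-like ratio at 1.38 for Nfkb1, 1.81 for Rel and 5.87 for Bcl3, the ILC3-like ratio of Nfkbia at 0.684, and the fibroblast ratio at 1.81 for Nfkb1 and 2.43 for Rel. Whether this step removed the lymphocyte RNA found in fibroblasts was not tested. Long genes differed more in the free RNA: genes that span over 100 kb, as Nfkb1 does with 107 kb, had a median log2 ratio of 0.49 there and of 0.11 in Th17-like cells. The Nfkb1 log2 ratio in Th17-like cells was 0.51.

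**Figure D5:**
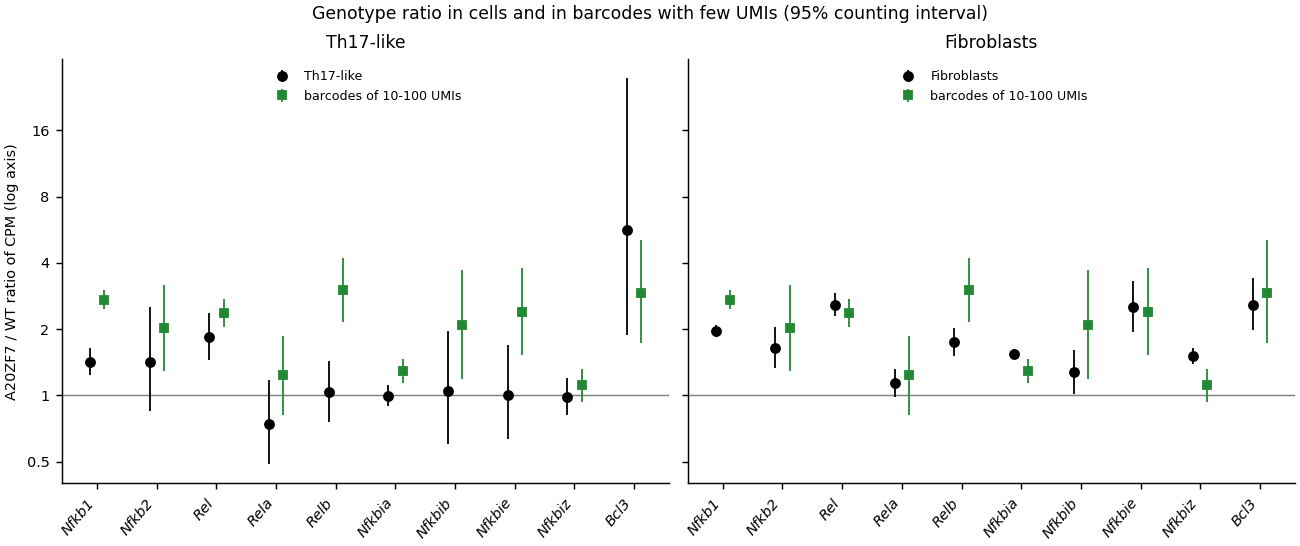
Ratio of the A20ZF7 to the WT level (log axis) of the 10 genes in Th17-like cells and in fibroblasts (black circles) and in barcodes of 10 to 100 UMIs (green squares, the same in both panels), with exact 95% counting intervals. In the barcodes with few UMIs the ratio of Nfkb1 is 2.72, of Relb 3.0 and of Nfkbia 1.29, so Nfkb1 and Relb lie above their Th17-like ratios.

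The makeup of the subunit UMIs changed within cell types even where the total of the cell does not enter. How well the transcripts of each gene were captured was not measured, so the shares compare libraries and not subunits. Rel took 18.6% (14.8 to 22.9) of the UMIs of the 5 subunits in WT and 24.4% (23.1 to 25.7) in A20ZF7 Th17-like cells, Rela took 6.91% and 3.65%, and Nfkb1 took 58.2% and 58.9%. ILC2-like cells went the other way for the Rel share, at 27.6% (24.8 to 30.5) and 15.3% (12.2 to 18.7), with Nfkb1 at 64.7% and 76.2%. So did the T cells of no named subset, at 30.02% (26.3 to 33.9) and 22.7% (21.5 to 23.96). The Rel level in these T cells was higher in A20ZF7, with 252 and 307 CPM (1.22, 1.04 to 1.44), while Nfkb1 had the larger ratio (1.91). In fibroblasts Rel took 14.1% and 19.0%, and Rela 11.8% and 7.00%.

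Cytoplasmic IκB transcripts were fewer per subunit transcript in A20ZF7 in most types. Counted as UMIs of Nfkbia, Nfkbib and Nfkbie per 100 UMIs of the 5 subunits, the value was 103 (88.8 to 119) in WT and 73.0 (69.7 to 76.4) in A20ZF7 Th17-like cells, and 99.6 (88.5 to 112) and 51.0 (46.9 to 55.4) in ILC3-like cells. Plasma cells had 218 and 95, endothelial cells 333 and 153, and fibroblasts 82.8 and 67.7. Naive or memory-like T cells were an exception with 71.5 (55.0 to 92.8) and 86.4 (77.7 to 96.1), where the intervals overlap. The intervals also overlap in CD8 T-like cells, the T cells of no named subset, ILC2-like cells, macrophages or monocytes and epithelial cells. In Th17-like cells the numerator held nearly the same Nfkbia level in both libraries, so the change there came with the subunits.

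The genes around the subunits were taken from lists. In Th17-like cells 3 of the 17 genes of the IκB kinase and the steps above it were at least 1.5 times higher and 0 lower, where 19.9% of all genes were higher and 13.7% lower, with Map3k7 (1.81), Chuk (1.70) and Prkcq (1.56) at the top, and their summed level was 1249 CPM in WT and 1350 CPM in A20ZF7 (1.08, 0.982 to 1.19). Of the 10 genes on the side of linear ubiquitin and A20, 1 was higher (Otulin, a linear deubiquitinase, 1.56) and 0 lower. Tnfaip3 itself stood at 1519 and 1427 CPM (0.939). Of 6 genes for other IκB-like proteins and regulators, 1 was lower, Nfkbid, which encodes the nuclear IκBNS, at 254 and 111 CPM (0.437).

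The textbook NF-κB targets did not move as 1 group. In Th17-like cells 4 of 21 with enough UMIs were higher and 8 lower (all genes 19.9% and 13.7%), and their summed level was 3947 CPM in WT and 3133 CPM in A20ZF7 (0.794, 0.751 to 0.839). Ccl20, the ligand of CCR6, stood at 78.4 and 211 CPM (2.69, 1.85 to 4.05). Vcam1, counted among the 4 higher, had 0 UMIs in WT and reached 20 UMIs only through the A20ZF7 library. Its A20ZF7 level was 2.21 times what 3 WT counts would give, without the counting error of A20ZF7. At the other end stood Csf2 (132 and 23.9 CPM, 0.181), Cxcl2 (0.206) and Tnf (0.227), genes of acute activation. In ILC3-like cells 2 of 20 were higher and 9 lower (16.7% and 12.5% of all genes), with a summed ratio of 0.659, while in fibroblasts 12 of 24 were higher and 1 lower (12.8% and 11.8%), with 1.47.

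Immediate early and heat shock genes, which the digestion of tissue can induce, were also lower in A20ZF7 in many of the lymphocytes. In Th17-like cells 11 of 14 were at least 1.5 times lower and 0 higher, where 13.7% of all genes were lower, with a summed level of 14825 CPM in WT and 9085 CPM in A20ZF7 (0.613, 0.595 to 0.631). Atf3 (0.309), Hspa1b (0.325) and Zfp36 (0.362) were the lowest, and Jund had the highest ratio (0.766). In ILC3-like cells, where Nfkbia was lower, 8 of 14 were lower and 0 higher (0.692) beside 12.5% of all genes lower, and in fibroblasts 0 of 14 passed in either direction (1.12). Other types were lower too, with 12 of 12 tested in ILC1 or NK-like cells (0.510), 10 of 14 in gamma-delta T-like cells (0.663), 9 of 14 in Th1 or NKT-like cells (0.671) and 7 of 14 in endothelial cells (0.623). Of all genes, 16%, 14.1%, 12.8% and 14.4% were lower in these types, in the same order. Nfkbia and Nfkbiz are themselves induced early after stimulation. The part of handling in the ILC3-like values was not tested.

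Across the 30 cell type and genotype groups with at least 50 cells, the level of Nfkb1 followed that of Ern1 (Pearson r of log2(CPM + 10) 0.953), Nrip1 (0.948) and Rel (0.942), out of 7746 genes compared. Rel followed Ptp4a2 (0.964), Dleu2 (0.952) and Runx1 (0.944). Nfkbiz was nearest to Aff4 (0.903), Junb (0.863) and Brd2 (0.862), and Nfkbie to Gpr183 (0.910). Nfkbia was nearest to Arhgap31 (0.865), and among the members to Nfkbiz (0.773), while its r with Nfkb1 was 0.666. Nfkb2 had its highest r among the members with Relb (0.826), and the highest r of Bcl3 and Nfkbib with any gene were 0.751 (Hjurp) and 0.802 (Ppp6r1). Groups share 2 libraries and their free RNA, and low genes carry more counting error, so these values are descriptions.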

How the data were processed

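Per the file headers and the study's notes, the authors aligned the 10x Genomics reads to mm10 with Cell Ranger 7.1 (the headers of the gene files say 8.0.0, those of the antibody files 7.1.0), and deposited unfiltered UMI counts per gene and barcode. Intronic reads count by default in these versions. The A20ZF7 antibody file equals the WT one and was not used.

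Cells had 200 to 2500 genes, at most 15% mitochondrial UMIs, not both hashtags, and at least 675 (WT) or 396 (A20ZF7) UMIs, set by 0.1 of the 0.99 quantile of the deepest barcodes; the hashtag filter reached WT alone, so doublets were removed by tag in 1 genotype only, and no other doublet caller was run. A cell was gated by 3 UMIs from at least 2 genes of its lineage list and few of any other. Counts over the 31950 shared IDs were summed per type and library (Python 3.11.15, scipy 1.17.1) into CPM with exact Poisson, ratio or binomial intervals of 95%; a count of 0 allows 3 counts. Hashtags were called with Seurat 5.3.0 in R 4.3.3. Scripts were tested on simulated data. All 10 members are named, and of each other list the 3 highest and lowest Th17-like ratios may be. Members and lists were chosen with earlier results of these data known. The authors' own cell names and filters were not used here.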

Additional observations from a re-analysis of the deposited data

Results flagged for a closer look

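Some members had an interval below 1 in a cell type and above 1 in another, and the difference between those types was not tested. The A20ZF7 to WT ratio of Nfkbia was 0.676 in ILC3-like cells and 1.70 in epithelial cells. That of Nfkbiz was 0.719 in ILC2-like cells and 2.63 in plasma cells. Bcl3 had 0 UMIs in 62 A20ZF7 epithelial cells, which allows up to 24.2 CPM, and 54 UMIs (31.1 CPM) in WT, with a ratio interval that reaches up to 0.99. The WT mice there had 44.5 and 19.5 CPM, so the lower of them lies under that limit. In CD8 T-like cells, where WT had 1 UMI, the Bcl3 ratio was 7.83.

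Barcodes of 10 to 100 UMIs, outside the cells that were compared, held a higher level in A20ZF7 than in the WT library for 8 of the 10 members, with the interval above 1. The ratios were 2.72 for Nfkb1, 2.02 for Nfkb2, 2.37 for Rel, 3.0 for Relb, 1.29 for Nfkbia, 2.09 for Nfkbib, 2.40 for Nfkbie and 2.93 for Bcl3. Their part in the ratios of the gated cells was tested only by taking off the estimated share of free RNA.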

How the results depend on the processing

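Under 16 alternatives, 1786 of 1887 recomputed ratios stayed within the counting interval of the reported value, 94 moved out of it and 7 changed direction. A change of direction was counted only for ratios at least 1.5-fold from 1 in the main setting. Members at least 1.5 times higher in Th17-like cells numbered 4 (main 2) with 0 UMIs of other lists and after thinning to 500 UMIs, and 1 at a fold of 2. Members lower there (main 0) numbered 1 with a gate of 5 UMIs, with 0 UMIs of other lists and against hashtag 7, and 2 after thinning. In ILC3-like cells 1 was higher (main 2) with 0 UMIs of other lists, after thinning and against hashtag 8, and 0 at a fold of 2. Lower there (main 0) was 1 with at least 1000 UMIs, gates of 2 and 5 UMIs, totals over all listed IDs, division by the median ratio and thinning, and 2 with 0 UMIs of other lists and against hashtag 8. In fibroblasts 4 were higher (main 8) against either hashtag alone and 3 at a fold of 2. The ratio of Nfkbib reversed in naive or memory-like T cells without the hashtag filter (0.838) and against hashtag 8 (0.863), and in plasma cells with totals that leave out mitochondrial, ribosomal, immunoglobulin and haemoglobin genes (0.987) and after division by the median ratio (0.923). Nfkbia in plasma cells also reversed under that division (0.936), Nfkb2 in fibroblasts with 0 UMIs of other lists (0.998), and Bcl3 in ILC3-like cells against hashtag 8 (0.962). The cause was not tested. In Th17-like cells the ratio ranged from 1.26 to 1.64 for Nfkb1, from 1.52 to 2.23 for Rel and from 2.76 to 12.4 for Bcl3, all above 1. No value was had where an alternative left under 30 cells (14 combinations of type and alternative) or under 20 UMIs (355 ratios), nor for Bcl3 in Treg-like cells, with 0 UMIs in WT. No paired analysis was possible because each genotype has 1 library. UMI depth limits Nfkb2, Rela, Nfkbib, Nfkbie and Bcl3 most.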
